A study of Danio rerio with 6 samples.

Results

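Most of the genes analysed here encode parts of the motile axoneme, the microtubule skeleton that makes cilia and flagella beat. Others serve its assembly or share only a symbol prefix with such genes. All are called axoneme genes below. They were taken from the gene table by symbol: every Ensembl identifier whose symbol began, ignoring case, with dnah, dnai, dnaaf, cfap, rsph, tekt, drc or spag6. Of 32520 identifiers, 84 carried such a symbol, and 82 of them had more than 5 counts in at least 3 of the 6 libraries, among 23805 genes that passed this filter. Symbols in capitals are those of the human orthologue, as the table lists them. Whole thymi were explanted from adult zebrafish of 3 months and unspecified sex, either *foxn1*+/+ (wild types) or *foxn1*-/- (mutants, homozygous for an internal deletion of *foxn1*). In its account of RNA extraction for RT-PCR, the study gives the *ikzf1*:EGFP transgenic background for fish of both genotypes. RNA of 3 fish was pooled in each library, and 3 libraries were sequenced per genotype. The study used these samples to ask which cells that imitate peripheral tissues in the thymus, ciliated cells among them, are found without functional *foxn1*, the master regulator of thymic epithelium.

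In a motile cilium, a ring of doublet microtubules surrounds a central pair. Outer and inner dynein arms on the doublets are the motors, radial spokes and the nexin-dynein regulatory complex transmit control to the arms, and tektins and other inner proteins line the lumen of the doublets. Dynein arms are folded and put together in the cytoplasm by dedicated assembly factors before they are carried into the cilium. In the mammalian thymus, cells with motile cilia are a small fraction of the epithelium, and thymocytes carry no motile cilium.

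The libraries held between 31989159 and 42198532 counts, so that 3 counts corresponded to between 0.0623 and 0.0874 CPM (counts scaled to a common library total, with TMM factors), a floor that covers counting error only. The targeted gene, *foxn1*, was at 10.3, 9.96 and 9.31 CPM in wild types and at 3.32, 3.47 and 1.76 CPM in mutants. Of 18 thymocyte markers, 16 were lower in mutants, with a summed level between 10920 and 14344 CPM in wild types and between 308 and 797 CPM in mutants. A few genes took a larger share of the mutant libraries: the top 10 genes held 13.1% to 14.6% of a wild-type library and 26.1% to 30.0% of a mutant one. The scaling mattered: on library size alone, the median log2 difference over the whole table was -0.39 in place of 0.02. How far the larger share accounts for this shift was not tested. The quasi-likelihood test of edgeR, two-sided, was fitted to all 23805 genes, and a gene was called at an adjusted p under 0.05.

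Most axoneme genes were less abundant in mutant thymi. Of the 82 genes, 67 were called lower, 6 were called higher and 9 were not called, against 35.9% of all tested genes called lower and 36.2% called higher. Their median log2 fold change was -2.05 (quartiles -2.56 and -1.06), which left 24.2% of the wild-type level, whereas the median of all tested genes was 0.02. In 43 genes the decrease was larger than 4-fold, a size reached by 9.68% of all tested genes, and in 12 of these it was larger than 8-fold. A further 20 genes were between 2- and 4-fold lower and 4 were less than 2-fold lower, bins for which no share over all tested genes was counted. Over all tested genes, 5% had a log2 fold change below -3.05, near an 8-fold decrease. In bulk tissue, fewer ciliated cells, less RNA per ciliated cell and changes in other cells that hold RNA of these genes cannot be told apart.

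The genotypes were also separated library by library. In 68 genes every mutant library was below every wild-type library, and over all tested genes mutants lay wholly below wild types in 39.3%. In 9 genes every mutant library was above and in 5 the genotypes overlapped, for which no share over all tested genes was counted. Summed over the tested genes, the axoneme took 530, 445 and 471 CPM in wild types and 178, 196 and 181 CPM in mutants (482 ± 43.4 against 185 ± 9.54, SD, n = 3), a 2.61-fold difference. The lowest wild-type sum was far above the highest mutant sum. Abundant single genes weighed heavily in these sums. In mutants, the cfap-named *CFAP20*, *cfap36*, *cfap119*, *CFAP298* and *cfap92* had means of 13.9, 13.2, 12.2, 11.7 and 11.1 CPM. Their wild-type means were 32.4, 11.7, 21.0, 15.7 and 9.45 CPM, respectively.

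**Figure D1:**
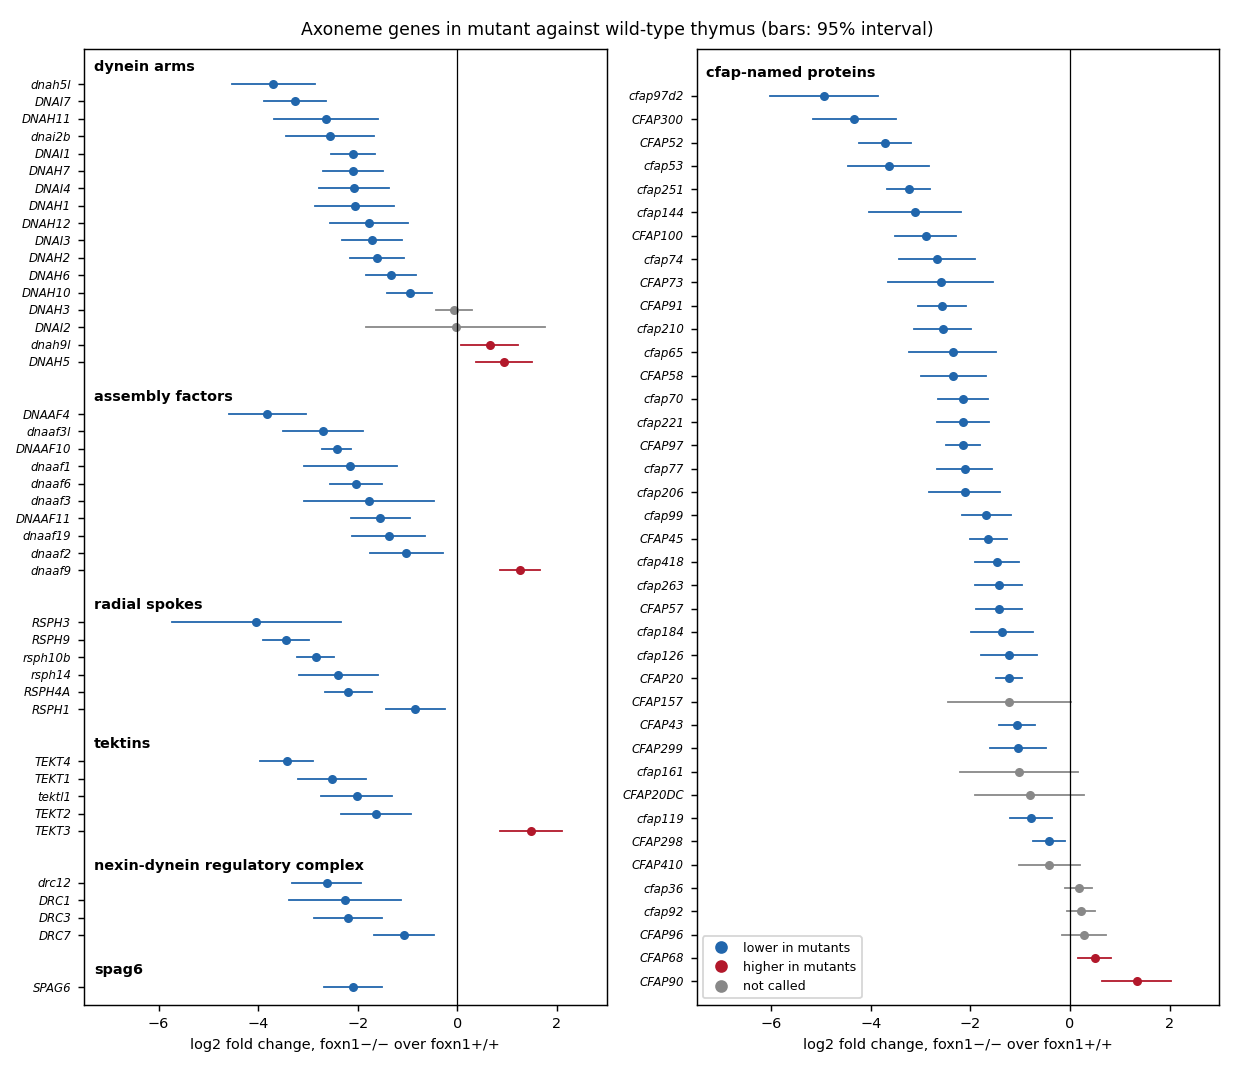
Log2 fold change of each of the 82 axoneme genes in mutants over wild types (x axis), with 95% intervals, by class, where blue marks genes called lower, red genes called higher and grey genes not called by edgeR's quasi-likelihood test. Blue points fill the left of every class, and the 6 red points lie in the dynein arms, assembly factors, tektins and cfap-named proteins; on library size alone *dnah9l*, *DNAH5* and *CFAP68* were no longer called.

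Radial spokes, the levers between the doublets and the central pair, were lower in all 6 *rsph* genes, with a median log2 fold change of -2.61, and their sum fell from 37.6 ± 5.71 to 6.53 ± 0.806 CPM (SD, n = 3), a 5.76-fold difference. *RSPH9* (ENSDARG00000017355), a protein of the spoke head, had 10.7, 7.94 and 9.04 CPM in wild types and 0.787, 0.834 and 0.909 CPM in mutants. It decreased by 3.45 on the log2 scale (SE 0.195, edgeR adjusted p = 2.91e-05). *rsph10b* (ENSDARG00000051891), another head protein, had 14.5, 12.03 and 13.6 CPM in wild types and 1.84, 2.05 and 1.71 CPM in mutants. All its mutant values lay far below the lowest wild-type value, and it fell by 2.84 on the log2 scale (edgeR adjusted p = 2.79e-05). *RSPH4A* (ENSDARG00000067606), which shapes the head, had 5.86, 5.07 and 4.56 CPM in wild types and 1.25, 1.05 and 1.10 CPM in mutants, with no overlap, and it fell by 2.19 on the log2 scale (edgeR adjusted p = 1.07e-04). *rsph14* had 4.82, 3.08 and 3.76 CPM in wild types and 0.962, 0.808 and 0.455 CPM in mutants, again without overlap, and it fell by 2.39 on the log2 scale (edgeR adjusted p = 6.23e-04). In a RefSeq annotation of another build, *rsph10b* shared its position with *dlgap5* (log2 fold change -4.08) and *RSPH4A* with *lrwd1* (-2.59). Reads of those genes in their values cannot be told apart. *RSPH9*, *rsph14*, *RSPH3* and *RSPH1* shared theirs with no protein-coding gene.

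The 2 remaining spoke genes stood at the ends of the class. *RSPH3* (ENSDARG00000043470), a stalk protein, had 4.88, 2.58 and 0.800 CPM in wild types and 0.175, 0.188 and 0.134 CPM in mutants. Its mutant libraries were close together, while its wild-type libraries spread over a 6.10-fold range, and it fell by 4.04 on the log2 scale (edgeR adjusted p = 0.00204). Without wild-type replicate 1 the log2 fold change of *RSPH3* was -3.32. *RSPH1* (ENSDARG00000102261), a head protein, had 3.43, 3.03 and 3.12 CPM in wild types and 1.63, 2.34 and 1.36 CPM in mutants. The genotypes did not overlap, but mutant replicate 2 came near the lowest wild type. It decreased by 0.84 on the log2 scale (SE 0.251, edgeR adjusted p = 0.0186), and the adjusted p was 0.0564, 0.0644 and 0.0668 without wild-type replicate 1, mutant replicate 1 and mutant replicate 3, respectively. The raw ratio of *RSPH9* to *RSPH1* counts needs no scaling between libraries, but this pair was chosen after its values were seen. The ratio lay from 2.62 to 3.12 in wild types and from 0.356 to 0.667 in mutants, without overlap.

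Tektins divided into 4 genes that decreased and 1 that increased. Tektins are filament proteins that run along the inside of the doublet. *TEKT4* (ENSDARG00000028899) had 9.76, 8.15 and 7.55 CPM in wild types and 0.641, 0.969 and 0.749 CPM in mutants, and *TEKT1* (ENSDARG00000101331) had 11.2, 8.10 and 7.47 CPM in wild types and 1.25, 2.18 and 1.23 CPM in mutants. In both genes the genotypes were far apart, and mutant replicate 2 was the highest of the mutants. *TEKT4* fell by 3.43 on the log2 scale (edgeR adjusted p = 3.91e-05) and *TEKT1* fell by 2.52 on the log2 scale (edgeR adjusted p = 2.74e-04). *tektl1*, a tektin-like gene, had 7.21, 4.67 and 4.88 CPM in wild types and 1.25, 1.86 and 1.02 CPM in mutants, and it fell by 2.02 on the log2 scale (edgeR adjusted p = 8.25e-04). *TEKT2* had 2.72, 1.89 and 2.27 CPM in wild types and 0.991, 0.592 and 0.642 CPM in mutants, and it fell by 1.63 on the log2 scale (edgeR adjusted p = 0.00215). The summed level of the 5 genes fell from 26.4 ± 4.57 to 7.54 ± 0.812 CPM (SD, n = 3).

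*TEKT3* (ENSDARG00000045038) moved the other way. It had 0.810, 1.22 and 1.31 CPM in wild types and 2.77, 2.85 and 3.61 CPM in mutants, so that every mutant lay well above the highest wild type. It rose by 1.47 on the log2 scale (SE 0.264, edgeR adjusted p = 0.00199), and it was called under every alternative scaling, test and filter and without any single library. In raw counts within a library, the ratio of *TEKT4* to *TEKT3* was 12.1, 6.67 and 5.78 in wild types and 0.232, 0.340 and 0.207 in mutants. Pairs for such ratios were chosen after their values were seen, and they describe unequal change of the genes in a pair. The ratio of *RSPH9* to *TEKT4*, both of which decreased, was 1.096, 0.974 and 1.198 in wild types and 1.23, 0.861 and 1.21 in mutants, with overlapping genotypes.

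**Figure D2:**
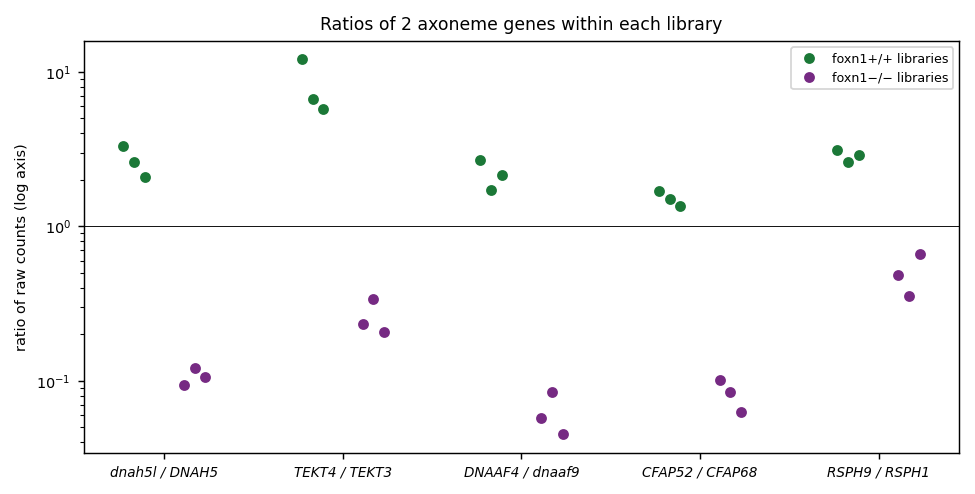
Ratio of the raw counts of 2 axoneme genes within each library (y axis, log scale), 1 point per library, wild types in green and mutants in purple. In each of the 5 pairs, chosen after their values were seen, all wild-type ratios lie above all mutant ratios, by 25.2-fold in the means for *dnah5l* over *DNAH5* and by 5.74-fold for *RSPH9* over *RSPH1*.

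Of 17 dynein arm genes tested, 13 were lower, 2 were higher and 2 were not called, with a median log2 fold change of -1.77. Their sum was 57.0 ± 8.96 CPM in wild types and 24.2 ± 2.13 CPM in mutants (SD, n = 3). The outer arm heavy chains, the large motor subunits of the arm that drives beat frequency, were the most divided group: of 4 tested, 2 were lower and 2 were higher, and their sum was between 10.1 and 16.1 CPM in wild types and between 7.11 and 10.04 CPM in mutants. *dnah5l* (ENSDARG00000056888), named for its likeness to *DNAH5*, had 9.87, 5.10 and 6.11 CPM in wild types and 0.437, 0.727 and 0.455 CPM in mutants. Its wild-type libraries ranged over 1.93-fold and the highest mutant was at 0.727 CPM. It decreased by 3.69 on the log2 scale (SE 0.355, edgeR adjusted p = 1.28e-04). *DNAH11* (ENSDARG00000094282) had 1.66, 0.956 and 1.04 CPM in wild types and 0.291, 0.188 and 0.107 CPM in mutants, without overlap, and it fell by 2.64 on the log2 scale (edgeR adjusted p = 0.00143).

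The other outer arm heavy chains were higher in mutants. *DNAH5* (ENSDARG00000087373) had 2.97, 1.94 and 2.93 CPM in wild types and 4.66, 6.06 and 4.31 CPM in mutants, with the lowest mutant above the highest wild type. It rose by 0.94 on the log2 scale (SE 0.242, edgeR adjusted p = 0.0103); on library size alone its log2 fold change was 0.54 and not called (adjusted p = 0.0779). *dnah9l* had 1.62, 2.12 and 1.47 CPM in wild types and 2.89, 3.07 and 2.25 CPM in mutants. Its lowest mutant value was just above the highest wild-type value. It rose by 0.65 on the log2 scale (edgeR adjusted p = 0.0424), a call that was lost on library size alone (log2 fold change 0.24), with voom and treat (adjusted p = 0.0988) and without any one of wild-type replicates 1 and 3 and mutant replicates 1 and 2 (adjusted p between 0.0918 and 0.122). In raw counts, the ratio of *dnah5l* to *DNAH5* was 3.32, 2.63 and 2.08 in wild types and 0.0938, 0.120 and 0.106 in mutants. The strand setting of the counting is not given in the sources used here, and in a RefSeq annotation of another build *DNAH5*, *dnah9l* and *dnah5l* each overlapped a further protein-coding gene, so reads of that gene in their values cannot be told apart.

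Inner arm heavy chains, whose motors shape the waveform, were lower in 6 of 7 genes, with a median log2 fold change of -1.61. *DNAH7* had 3.14, 2.23 and 2.43 CPM in wild types and 0.700, 0.538 and 0.588 CPM in mutants, and it fell by 2.09 on the log2 scale (edgeR adjusted p = 3.48e-04). *DNAH1*, *DNAH12*, *DNAH2* and *DNAH6* had log2 fold changes of -2.06, -1.77, -1.61 and -1.33, each called lower. *DNAH10* (ENSDARG00000061486) had the smallest decrease of the group, with 3.12, 2.82 and 2.96 CPM in wild types and 1.603, 1.56 and 1.42 CPM in mutants. Replicates of this gene agreed closely, and it fell by 0.96 on the log2 scale (edgeR adjusted p = 0.00324). *DNAH3* (ENSDARG00000068468) was the exception, with 5.03, 5.13 and 4.40 CPM in wild types and 4.63, 4.47 and 4.79 CPM in mutants. Its genotypes overlapped. The log2 fold change was -0.07 with a 95% interval from -0.43 to 0.29, which does not reach a 2-fold decrease. On library size alone *DNAH3* was called lower (-0.47, edgeR adjusted p = 0.0305). In a RefSeq annotation of another build *DNAH3* overlapped *lyrm1* (log2 fold change -0.19). Reads of *lyrm1* in its values cannot be told apart.

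Intermediate chains, which hold the heavy chains together at the base of the arm, were lower in 5 of 6 tested genes. *DNAI1* (ENSDARG00000038788) had 8.89, 7.94 and 8.06 CPM in wild types and 1.84, 2.31 and 1.66 CPM in mutants, and it fell by 2.097 on the log2 scale (edgeR adjusted p = 9.45e-05). *DNAI7*, an inner arm protein, had 5.30, 3.88 and 4.06 CPM in wild types and 0.379, 0.565 and 0.428 CPM in mutants, and it fell by 3.26 on the log2 scale (edgeR adjusted p = 7.17e-05). The genotypes were apart in both genes. *dnai2b*, *DNAI4* and *DNAI3* had log2 fold changes of -2.56, -2.07 and -1.71, each called lower. *DNAI2* had only 12, 2 and 4 counts in the wild-type libraries and 6, 1 and 8 in mutants, and its interval, from -1.83 to 1.76, covered decreases and increases of more than 2-fold.

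Both identifiers that missed the filter were dynein genes, and neither was tested. *dnah9* had 11, 4 and 12 counts in the wild-type libraries and 0, 3 and 2 in mutants, and a further identifier listed as *DNAI1* (ENSDARG00000100081) had 20, 13 and 4 counts in the wild-type libraries and 3, 1 and 1 in mutants. The mutant level was 0.210 of the wild-type level for *dnah9* (exact 95% counting interval 0.0631 to 0.552) and 0.153 for that identifier (0.0469 to 0.390), from counts summed over each genotype. The members nearest to the filter on its inner side were *DNAI2* and *dnaaf3*. Over 5 counts were reached in wild types alone by 5 members (*dnaaf3*, *cfap97d2*, *cfap144*, *CFAP73* and *dnai2b*), and since they passed through the genotype in which they were high, their calls follow in part from the filter. Of the 72 members with more than 5 counts in every library, 59 were lower and 6 higher.

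Assembly factors of the dynein arms were lower in 9 of 10 genes, with a median log2 fold change of -1.90, and their sum was 72.3 ± 5.22 CPM in wild types and 24.9 ± 2.77 CPM in mutants (SD, n = 3). Single genes weighed heavily in these sums: *DNAAF10* had a mean of 39.3 CPM in wild types, and *dnaaf9*, which increased, 11.6 CPM in mutants. *DNAAF4* (ENSDARG00000099161), a co-chaperone of arm folding, had 11.8, 8.63 and 11.1 CPM in wild types and 0.554, 1.13 and 0.535 CPM in mutants. Mutants were at 7.08% of the wild-type level, and it decreased by 3.82 on the log2 scale (SE 0.328, edgeR adjusted p = 8.69e-05). *DNAAF10* (ENSDARG00000037334), a partner of the R2TP co-chaperone, had 41.4, 37.1 and 39.4 CPM in wild types and 6.47, 7.91 and 7.62 CPM in mutants. Replicates were tight in both genotypes, and it fell by 2.42 on the log2 scale (edgeR adjusted p = 2.35e-05). *dnaaf3l*, *dnaaf1* and *dnaaf6* had log2 fold changes of -2.70, -2.15 and -2.03, and *DNAAF11* and *dnaaf19* of -1.55 and -1.38, each called lower. Mutant replicate 3 stood out for *dnaaf1*, with 1.26 CPM beside 0.641 and 0.458 CPM.

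The decreases of *dnaaf2* and *dnaaf3* were less firm. *dnaaf2* (ENSDARG00000103132), a factor of early arm folding, had 0.914, 0.770 and 0.720 CPM in wild types and 0.321, 0.511 and 0.348 CPM in mutants, with no overlap. It fell by 1.02 on the log2 scale (edgeR adjusted p = 0.0207), and the call was lost without wild-type replicate 1, mutant replicate 1 or mutant replicate 3 (adjusted p between 0.0676 and 0.0740). *dnaaf3* had 6, 7 and 7 counts in the wild-type libraries and 1, 1 and 3 in mutants, a mutant level of 0.283 of the wild-type level (exact 95% counting interval 0.0830 to 0.777). It fell by 1.77 on the log2 scale (edgeR adjusted p = 0.0231), but DESeq2 gave an adjusted p of 0.115, 4 of the 6 fits without 1 library gave one between 0.0603 and 0.0742, and without mutant replicate 3 the log2 fold change was -2.38.

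*dnaaf9* (ENSDARG00000079056) was the assembly factor that increased. Its protein corresponds to Shulin of the ciliate *Tetrahymena*, which packs outer arms in an inactive state for delivery. It had 4.38, 5.05 and 5.15 CPM in wild types and 9.65, 13.3 and 11.8 CPM in mutants, and every mutant was well above every wild type. It rose by 1.26 on the log2 scale (SE 0.168, edgeR adjusted p = 5.06e-04), and it was called under every alternative. The ratio of *DNAAF4* to *dnaaf9* counts within a library was 2.69, 1.71 and 2.16 in wild types and 0.0574, 0.0848 and 0.0451 in mutants.

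**Figure D3:**
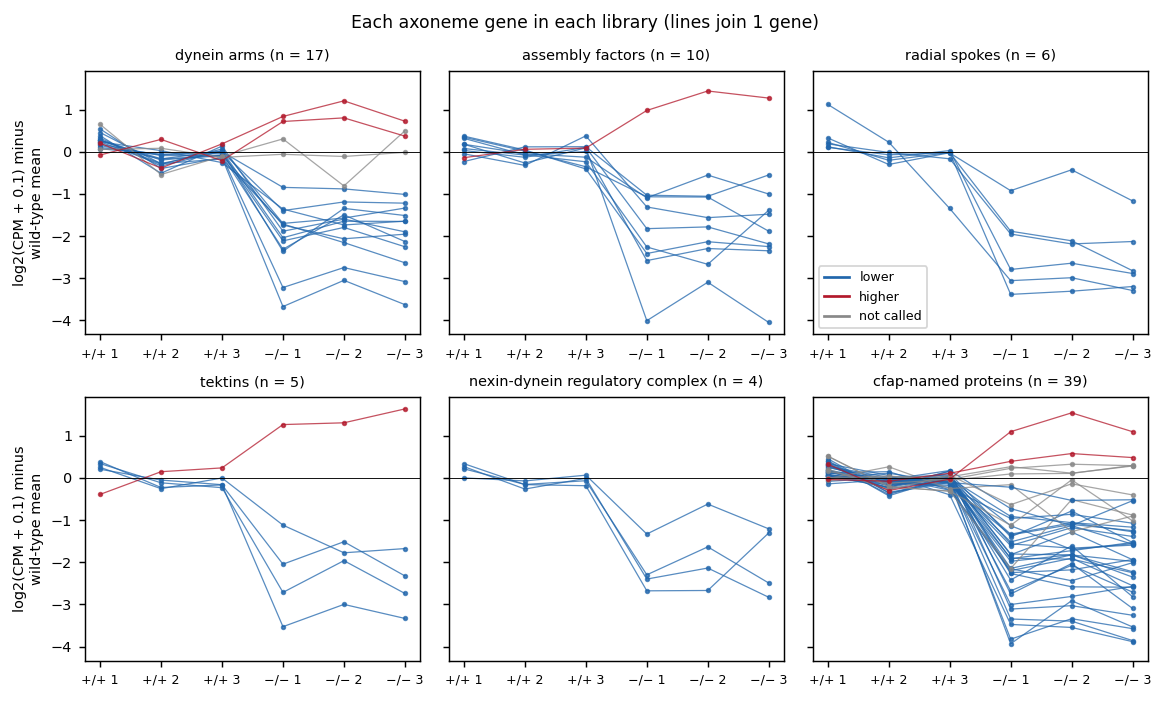
Each line is 1 axoneme gene in the 6 libraries (wild types +/+ 1 to 3, mutants -/- 1 to 3), drawn as log2(CPM + 0.1) minus its wild-type mean, in 6 classes; *SPAG6* is not drawn. Blue lines (called lower) drop between the genotypes, while 1 red line each in the tektins (*TEKT3*) and assembly factors (*dnaaf9*) climbs.

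The nexin-dynein regulatory complex, which links neighbouring doublets, was lower in all 4 genes, with a median log2 fold change of -2.23 and a sum that fell from 14.5 ± 1.99 to 3.74 ± 0.805 CPM (SD, n = 3). *drc12* had 4.42, 3.03 and 3.63 CPM in wild types and 0.612, 0.754 and 0.428 CPM in mutants, and it fell by 2.62 on the log2 scale (edgeR adjusted p = 2.31e-04). *DRC3* (ENSDARG00000041300) had 5.80, 4.46 and 4.75 CPM in wild types and 0.933, 1.53 and 0.802 CPM in mutants, and it fell by 2.20 on the log2 scale (edgeR adjusted p = 4.77e-04). The genotypes were apart in both, with mutant replicate 2 the highest. *DRC1*, the scaffold of the complex, had 3.30, 2.31 and 2.27 CPM in wild types and 0.321, 0.323 and 0.989 CPM in mutants. Its mutant replicate 3 was well above the others and still below all wild types, and it fell by 2.26 on the log2 scale (edgeR adjusted p = 0.00419). *DRC7* had 3.16, 3.00 and 3.31 CPM in wild types and 1.195, 2.02 and 1.31 CPM in mutants, and it fell by 1.06 on the log2 scale (edgeR adjusted p = 0.00750).

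Of 39 cfap-named genes, 30 were lower, 2 were higher and 7 were not called, with a median log2 fold change of -1.64, and their sum was 267 ± 16.5 CPM in wild types and 116 ± 2.24 CPM in mutants (SD, n = 3). Subgroups by place in the axoneme differed in how uniform they were. Central pair genes, with *SPAG6* counted among them, were lower in 6 of 6 with a median of -2.15. *SPAG6* (ENSDARG00000020158), a scaffold of the central pair, had 9.24, 7.14 and 6.72 CPM in wild types and 1.49, 2.37 and 1.58 CPM in mutants, and it fell by 2.09 on the log2 scale (edgeR adjusted p = 2.92e-04). *cfap74*, *cfap65*, *cfap70*, *cfap221* and *cfap99* had log2 fold changes of -2.67, -2.36, -2.15, -2.15 and -1.68, each called lower. All 3 genes of the spoke base, *cfap251*, *CFAP91* and *cfap206*, were lower, with a summed level of 19.9 ± 2.61 CPM in wild types and 2.79 ± 0.245 CPM in mutants (SD, n = 3), and their log2 fold changes were -3.24, -2.57 and -2.12. The genes that tether inner arms, *CFAP100*, *CFAP73*, *CFAP57* and *CFAP43*, were lower in 4 of 4, with log2 fold changes of -2.90, -2.60, -1.43 and -1.07.

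Proteins of the doublet lumen were less uniform. Of 12 genes, 8 were lower, 2 were higher and 2 were not called, with a median of -1.43. *CFAP52* (ENSDARG00000101679), an inner protein of the B tubule, had 9.14, 7.81 and 8.06 CPM in wild types and 0.729, 0.700 and 0.481 CPM in mutants, far apart between genotypes, and it decreased by 3.71 on the log2 scale (SE 0.221, edgeR adjusted p = 3.13e-05). *cfap53*, whose loss disturbs left-right asymmetry in zebrafish, had 7.81, 5.26 and 6.14 CPM in wild types and 0.321, 0.754 and 0.455 CPM in mutants, and it fell by 3.64 on the log2 scale (edgeR adjusted p = 1.20e-04). *CFAP20* (ENSDARG00000100514), which seals the inner junction between the tubules, had 33.8, 31.8 and 31.6 CPM in wild types and 12.8, 15.5 and 13.3 CPM in mutants. Its replicates differed little, and it fell by 1.22 on the log2 scale (edgeR adjusted p = 1.15e-04). *CFAP45*, *cfap77*, *cfap126*, *cfap144* and *cfap210* had log2 fold changes of -1.64, -2.12, -1.23, -3.12 and -2.56, each called lower.

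Both cfap-named genes that increased also belong to the doublet lumen. *CFAP90* (ENSDARG00000115108) had 0.914, 0.558 and 0.694 CPM in wild types and 1.63, 2.26 and 1.63 CPM in mutants, with the lowest mutant above the highest wild type. It rose by 1.34 on the log2 scale (SE 0.293, edgeR adjusted p = 0.00492), and it was called under every alternative. *CFAP68* (ENSDARG00000101743) had 5.36, 5.21 and 5.95 CPM in wild types and 7.26, 8.26 and 7.73 CPM in mutants, a narrow gap between genotypes. It rose by 0.49 on the log2 scale (edgeR adjusted p = 0.0155); the call was lost on library size alone (log2 fold change 0.09) and with voom and treat (adjusted p = 0.0970). *CFAP68* overlapped *cryabb*, whose log2 fold change was 1.62, in the RefSeq annotation of another build, whereas *CFAP90*, *TEKT3* and *dnaaf9* overlapped no protein-coding gene there. The ratio of *CFAP52* to *CFAP68* counts within a library was 1.71, 1.5 and 1.35 in wild types and 0.1004, 0.0847 and 0.0623 in mutants.

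Among the genes called lower, the largest and the smallest decreases were found in the cfap-named class. *cfap97d2* (ENSDARG00000093739) had 116, 50 and 60 counts in the wild-type libraries and 1, 3 and 2 in mutants, a mutant level of 0.0301 of the wild-type level (exact 95% counting interval 0.0109 to 0.0665), and it fell by 4.94 on the log2 scale (edgeR adjusted p = 1.14e-04). *CFAP300* (ENSDARG00000000349), which takes part in the assembly and transport of dynein arms, had 3.76, 3.08 and 2.21 CPM in wild types and 0.175, 0.162 and 0.107 CPM in mutants. The mutant libraries were close together and far below the wild types, and it fell by 4.33 on the log2 scale (edgeR adjusted p = 7.17e-05). *CFAP298* (ENSDARG00000035332), which has a like role, had 15.6, 16.97 and 14.5 CPM in wild types and 13.5, 10.8 and 10.9 CPM in mutants. Its genotypes were separated by a narrow gap, and it fell by 0.42 on the log2 scale (edgeR adjusted p = 0.0268). That call was lost with voom and treat (adjusted p = 0.178), with all genes kept (0.0539), with the replicate number as a block (0.0533) and in 4 of the 6 fits without 1 library. *cfap119* had 19.0, 20.4 and 23.7 CPM in wild types and 12.6, 9.53 and 14.4 CPM in mutants, and it fell by 0.79 on the log2 scale (edgeR adjusted p = 0.00569).

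Of the cfap-named genes, 7 were not called. *CFAP157*, *cfap161*, *CFAP20DC* and *CFAP410* had log2 fold changes of -1.22, -1.02, -0.81 and -0.42, with 95% intervals whose lower ends were -2.44, -2.20, -1.91 and -1.03, so that decreases of 2-fold were within the error. Some settings called them lower: library size alone did so for *CFAP157* (edgeR adjusted p = 0.0287), *cfap161* (0.0333) and *CFAP410* (0.0269), and DESeq2 for *CFAP157* (adjusted p = 0.0484). Without mutant replicate 2, edgeR called *CFAP157* (adjusted p = 0.0405) and *CFAP20DC* (0.0356) lower, and without mutant replicate 1 *cfap161* (0.0256). *CFAP157* had 1.64, 0.956 and 0.880 CPM in wild types and 0.175, 0.754 and 0.562 CPM in mutants, without overlap but with a wide spread among mutants. *cfap36*, *cfap92* and *CFAP96* had log2 fold changes of 0.17, 0.23 and 0.29, with values below 0 on library size alone. Their intervals ended at -0.11, -0.06 and -0.15 on the lower side and did not reach a 2-fold decrease. *cfap36* encodes a partner of the ciliary GTPase ARL3, which non-motile cilia also use. Besides *cfap97d2* and *cfap119*, 6 genes without a subgroup were called lower: *CFAP58*, *CFAP97*, *cfap418*, *cfap263*, *cfap184* and *CFAP299* had log2 fold changes of -2.34, -2.14, -1.47, -1.43, -1.36 and -1.04.

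**Figure D4:**
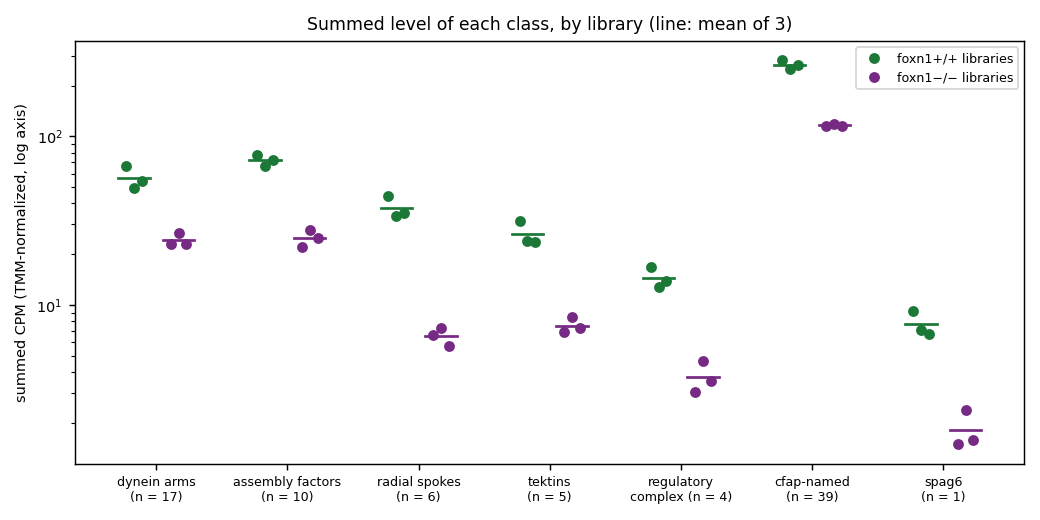
Summed CPM of each axoneme class in each library (y axis, log scale), 1 point per library, wild types in green, mutants in purple, lines at the mean of 3. In every class the 3 mutant points lie below the 3 wild-type points, with the widest gap in the radial spokes (37.6 against 6.53 CPM).

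The share of each class in the axoneme RNA differed between genotypes. Radial spokes made up 7.40% to 8.33% of the summed CPM of the members in wild types and 3.14% to 3.73% in mutants. Tektins took between 4.98% and 5.97% and between 3.88% and 4.32%, respectively. The cfap-named genes took 53.6% to 56.4% in wild types and 60.6% to 64.5% in mutants, and dynein arms between 11.2% and 12.6% and between 12.7% and 13.6%. These ranges did not overlap between genotypes, although those of the dynein arms nearly met. CPM are not divided by gene length, so these shares compare libraries and not the classes with each other. Abundant genes that changed little, such as *cfap36* and *cfap92*, weigh in the share of the cfap-named class.

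Some libraries tended to be the highest of their genotype. Among the 67 genes called lower, wild-type replicate 1 was the highest wild type in 56 (83.6%), compared with 45.7% of all genes called lower, and mutant replicate 2 was the highest mutant in 39 (58.2%), compared with 39.0%. The spread was otherwise that of other genes, with a median SD of log2(CPM + 0.1) of 0.233 in wild types and 0.238 in mutants for members and of 0.212 and 0.229 for all tested genes. Without wild-type replicate 1, 64 of the 67 genes were still called lower. In mutant replicate 2, several glial and ependymal markers also stood above the other mutants: an identifier of *FABP7* had 25.3, 161 and 43.6 CPM in mutants, *S100B* 3.96, 17.1 and 3.48 CPM, and an identifier of *SLC4A4* 15.9, 55.3 and 16.4 CPM. In wild types the same identifiers were lowest in replicate 1. *FABP7* had 9.60, 19.3 and 20.3 CPM, *S100B* 0.748, 1.41 and 1.44 CPM, and *SLC4A4* 2.12, 4.30 and 3.76 CPM. A further identifier of *FABP7* had 29.0, 24.9 and 23.4 CPM in wild types and 6.94, 10.1 and 5.78 CPM in mutants. That of *SLC4A4* had 7.79, 9.99 and 8.56 CPM and 38.6, 43.8 and 35.6 CPM, respectively. The part of these markers in the pattern was not tested. Without mutant replicate 2, 65 of the 67 genes were still called lower. The labels give no batch.

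Other parts of the motile axoneme, whose symbols lie outside the prefixes, were lower as well. Of 43 such genes tested, 42 were called lower and 1, *pierce1* (log2 fold change -0.12), was not called, with a median log2 fold change of -1.97 and a summed level of 277 ± 30.2 CPM in wild types and 78.7 ± 4.20 CPM in mutants (SD, n = 3). The list was chosen with earlier results of these data known. Its largest decreases were those of *ttc12*, an arm assembly factor with 1442, 882 and 911 counts in the wild-type libraries and 19, 18 and 14 in mutants, and *ODAD4*, part of the docking complex of the outer arm with 616, 389 and 403 against 18, 18 and 13 counts. The log2 fold changes were -5.78 and -4.64, respectively. Within the docking complex, *odad1*, *ODAD2* and *odad3* had log2 fold changes of -2.55, -2.95 and -1.93, each called lower.

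Genes of intraflagellar transport and of the BBSome, which carry cargo in motile and non-motile cilia alike, moved in both directions. Of 34 tested, 5 (14.7%) were lower, 7 were higher and 22 were not called. Over all tested genes, 35.9% were called lower and 36.2% higher. The summed level of the 34 was 238 ± 10.8 CPM in wild types and 225 ± 20.6 CPM in mutants (SD, n = 3), with overlapping libraries. Their log2 fold changes lay between -1.14 (*IFT20*) and 1.01 (*TTC8*), with a median near 0. On library size alone, 13 of the 34 were lower and 1 was higher, with a median of -0.41, close to the shift of the whole table. The difference between this list and the axoneme genes was not tested.

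**Figure D5:**
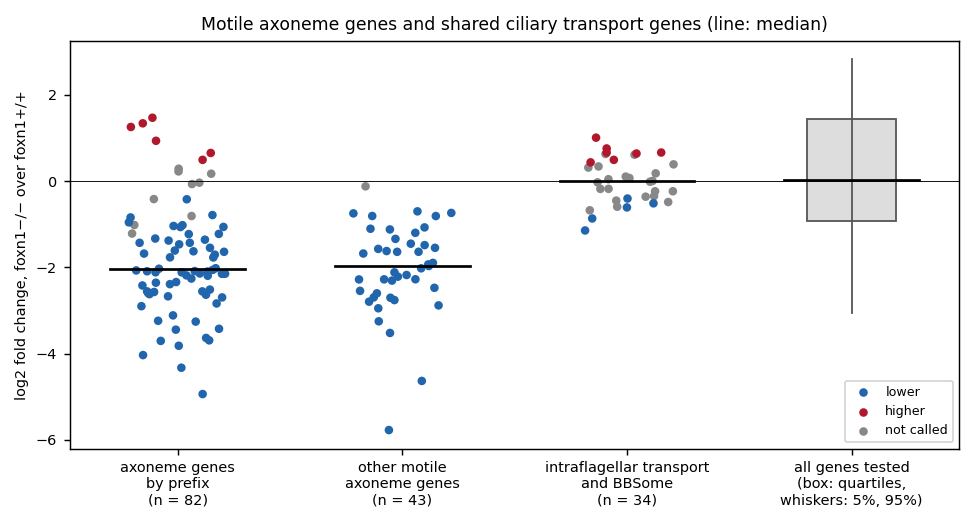
Log2 fold change in mutants over wild types (y axis) of the 82 axoneme genes chosen by prefix, 43 other motile axoneme genes, 34 intraflagellar transport and BBSome genes and, as a box with quartiles and 5% to 95% whiskers, all tested genes; thick lines are medians. The medians of both axoneme groups are at -2.05 and -1.97, while the transport genes are centred near 0, with 5 called lower and 7 higher (13 and 1 on library size alone).

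Regulators of ciliated cells fell along with the axoneme genes. *FOXJ1* (ENSDARG00000101919, the zebrafish *foxj1a*), the activator of motile cilium genes, had 58.5, 39.4 and 43.2 CPM in wild types and 2.19, 2.53 and 2.01 CPM in mutants, and it fell by 4.39 on the log2 scale (edgeR adjusted p = 2.22e-05). *gmnc*, which starts the multiciliated programme, had 77, 57 and 49 counts in the wild-type libraries and 4, 1 and 3 in mutants, and its log2 fold change was -4.26. Of 11 regulators tested, 9 were lower, and *TP73* and *RFX4* were not called. *RFX4* had 76, 71 and 71 counts in the wild-type libraries and 22, 144 and 23 in mutants. *MYB*, *E2F4* and *E2F5* are among the 9, and thymocytes and other dividing cells also express them.

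Markers of other tissues with motile or modified cilia were measured beside the members, and their part in the results was not tested. Counts of their genes called lower or higher stand beside the 35.9% and 36.2% of all tested genes. Hair cell markers summed to between 200.5 and 216 CPM in wild types and between 383 and 424 CPM in mutants, with 16 of 23 higher and 3 lower. Markers of non-sensory ear tissue summed to between 140.0 and 180 CPM and between 493 and 706 CPM, with 8 of 10 higher. The sums of both ear lists were thus higher in mutants, as were those of the kidney and ependymal list, without overlap; those of the epithelial list overlapped between genotypes.

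Olfactory markers summed to between 34.3 and 38.2 CPM in wild types and between 26.3 and 29.4 CPM in mutants, with 5 of 9 lower and *gnal* and *gnal2*, which encode olfactory-type G protein subunits, making most of the sum. Some members of the sensory transduction pathway were far lower: *cnga4* had 75, 65 and 51 counts in the wild-type libraries and 2, 0 and 2 in mutants. Single identifiers of *CNGA2* (140, 69 and 59 against 2, 4 and 6 counts), *ADCY3* (26, 11 and 12 against 1, 1 and 0) and *OMP* (44, 30 and 13 against 2, 1 and 1) were called lower too. Not called were *gnal* (log2 fold change 0.21), *trpc2b* (-0.71) and further identifiers of *ADCY3* (-0.77) and *OMP* (0.17). Germ cell and sperm markers summed to between 64.1 and 90.6 CPM and between 13.6 and 17.95 CPM, with 4 of 10 lower, *SYCP1* making most of the sum, and 3 higher, shares near those of all genes. Kidney tubule and ependymal markers summed to between 205 and 228 CPM in wild types and between 276 and 458 CPM in mutants, with 10 of 14 higher, among them identifiers of *SLC4A4* (log2 fold change 3.11), *PAX2* (3.09) and *S100B* (2.78). The kidney genes *CDH17* (155, 111 and 116 against 4, 0 and 2 counts) and *SLC12A3* (28, 23 and 21 against 2, 1 and 0) and an identifier of *FABP7* were lower. Photoreceptor markers summed to between 21.9 and 31.0 CPM in wild types and to 12.2, 35.0 and 628 CPM in mutants, so that mutant replicate 3 stood apart. Without that library, 64 of the 67 axoneme genes remained called lower and all 6 higher ones remained higher. Epithelial markers summed to between 4022 and 10127 CPM in wild types and between 9172 and 23169 CPM in mutants. *krt5* and *krt4* made most of these sums. *krt5* had 2017, 5829 and 1760 CPM in wild types and 14073, 3877 and 16200 CPM in mutants, with overlapping genotypes. Of the 16 epithelial markers, 10 were higher (5 on library size alone) and 4 lower. The 4 were *foxn1* (log2 fold change -1.79), *ccl25a* (-2.53), *psmb11b* and an identifier listed as *PSMB11*. That last identifier, of a gene of the thymic cortex, was at 0 counts in all mutants.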

How the data were processed

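RNA of whole thymi was sequenced in 6 libraries, 3 per genotype, grouped by the genotype and replicate number in the sample titles. For the library kit, the study's text and the sample labels give different NEB products. The authors deposited whole-number read counts for each Ensembl gene, with no normalization. Per the submitters' processing notes, Trim Galore 0.4.3.1, HISAT2 2.1.0, featureCounts 1.6.1.0 and GRCz11 were used. The strand setting and the treatment of reads shared by paralogues are not given in the sources used here, so values of close paralogues such as *DNAH5* and *dnah5l* are uncertain.

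The filter was that of the study (over 5 counts in 3 or more libraries), followed by TMM factors and the robust quasi-likelihood test of edgeR 4.0.16 in R 4.3.3. P-values were adjusted over all 23805 genes after Benjamini and Hochberg (Benjamini-Hochberg), with 0.05 as the threshold. Only the member genes and lists are given here. Class counts, medians and sums carry no test. Ratios of summed counts have exact 95% intervals that cover counting error only. No 2 libraries were copies of each other. Replicates are separate pools of fish, and p-values measure the spread between pools. The tests were checked on simulated data in which few genes changed, with decreases and increases balanced. That check therefore does not cover the scaling between genotypes that differ as widely as these.

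Symbols came from a table that matches 29201 identifiers. List genes missing under their zebrafish name were looked up without the final a or b, and all identifiers that share that symbol were used. Overlaps with other genes were read from RefSeq models of GRCz12tu, in which 77 members matched, and 32 of them overlapped a protein-coding gene. The 32 include members called lower, such as *DNAAF10*, *CFAP91*, *CFAP298*, *cfap119*, *CFAP43* and *cfap99*. They also include members called higher and members not called, such as *DNAH3*. Reads of the overlapping genes in the values of these members cannot be told apart. No coordinates or sequences are given, because the counts refer to another build and no promoter search was run.

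The members and lists were chosen with earlier results of these data known. Named in any case were the 3 members of each class with the highest mean CPM, every member called higher or not called, the 5 largest and 5 smallest decreases, members with at most 3 counts in each library of a genotype, all tektin and radial spoke genes, and *foxn1* and *foxj1a*. Other members and list genes were named after their values were seen. A planned likeness measure over the 6 libraries was left out, since these form 2 clusters. Alternatives were DESeq2 1.42.0, voom and treat with a fold of 1.2 (limma 3.58.1, the test of the study), DESeq2 size factors in edgeR, library size alone, a fit of all genes, a fit of genes with 10 or more counts in every library, a block for the replicate number, and each library left out in turn.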

Additional observations from a re-analysis of the deposited data

How the results depend on the processing

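Of the 67 genes called lower, between 64 and 67 were still called lower under every alternative that tested them all, and 58 of the 58 that had at least 10 counts in every library. Between 3 and 6 of the 6 genes called higher were still called higher. Library size alone moved every class down with the median of all genes: the median log2 fold change was -2.17 for dynein arms, -2.29 for assembly factors, -3.02 for radial spokes, -2.42 for tektins, -2.63 for the regulatory complex and -2.04 for cfap-named genes, and 3 members were higher, 0 of them dynein arms and 1 cfap-named. Under it, *cfap36*, *cfap92* and *CFAP96* were at -0.23, -0.18 and -0.12. With voom and treat, 1 dynein arm gene and 1 cfap-named gene were higher. With at least 10 counts in every library, the medians of assembly factors and cfap-named genes were -1.77 and -1.44, over fewer genes. Leaving out each library in turn gave between 64 and 67 members lower, between 1 and 2 dynein arm genes higher, and medians between -1.95 and -1.59 for dynein arms, -2.12 and -1.66 for assembly factors and -1.72 and -1.51 for cfap-named genes. In these fits between 7 and 8 assembly factors were lower, against 9 with all libraries, and between 5 and 6 radial spoke genes. *DNAI2* was at 0.0060 with the replicate block and between -0.47 and 0.76 in fits without 1 library. For libraries of the same number, deviations from the genotype mean correlated at 0.143, -0.0722 and -0.00996. Pairs of different numbers reached 0.117, so a pairing by number was not evident. With the replicate block 66 of the 67 genes were still called lower and 6 higher. The causes were not tested. Depth limits *dnaaf3*, *DNAI2*, *cfap161*, *dnah9* and a second identifier of *DNAI1*, which had 20 or fewer counts in each library.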
